A study of Homo sapiens with 12 samples.

Results

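The ERBB receptors and their EGF-like ligands were followed in H520 cells, an established human line labelled as lung squamous cell carcinoma (LUSC), under an FGFR4 inhibitor, a CDK4 and CDK6 inhibitor, or both. The set held 10 genes, matched by symbol among the 58174 genes of the deposited table: the receptors EGFR, ERBB2, ERBB3 and ERBB4 and the ligands AREG, EREG, TGFA, HBEGF, BTC and NRG1. Of these, 9 passed a filter on low counts that left 20612 genes for testing. EREG did not pass it. The study sequenced mRNA of 12 libraries, 3 for each of 4 groups. The groups were BLU9931 (1 µM), palbociclib (1 µM), the combination of both at these doses, and control. The labels give 72 h of treatment for the groups with a drug and no time for control. BLU9931 covalently blocks FGFR4, a fibroblast growth factor receptor, and palbociclib blocks the cyclin-dependent kinases CDK4 and CDK6. What the control cells received is not given in the labels. The labels do not call the libraries of a group separate cultures either, so p-values measure the spread between libraries, which may be technical.

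ERBB receptors are tyrosine kinases of the cell surface that pair up when a ligand binds and then feed the RAS to ERK and PI3K to AKT pathways. EGFR binds AREG, EREG, TGFA, HBEGF and BTC. ERBB3 and ERBB4 bind neuregulins such as NRG1, and ERBB4 also binds HBEGF, BTC and EREG. ERBB2 binds no known ligand and acts as a partner of the others, and the kinase domain of ERBB3 is nearly inactive, so ERBB3 signals through its partner. The ligands are made as membrane precursors that proteases such as ADAM17 cut free. EGFR and its ligands are abundant in many squamous carcinomas and in basal epithelium, where they drive growth.

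Depth ran from 21.7 M to 35.8 M counts a library. Control 1 (score 67.4) and palbociclib 3 (71.6) stood apart from the other libraries (-32.6 to 5.38) on the second principal component. It carried 17.1% of the variance. The deviation of each library from its group mean was also correlated with the GC content of transcripts. Spearman's r was -0.667 in control 1 and -0.735 in palbociclib 3, and -0.245 to 0.6 in the other libraries. The part of GC content in the results of these libraries was not tested. Any group of 3 has a lowest and a highest library. Control 1 and palbociclib 3 were the lowest or highest libraries of their groups in ERBB2, ERBB4, TGFA, PIK3R2, GRB7 and RHBDF1, whose changes are also given without them. They were extreme in other genes too, among them EGFR, AREG, BTC and HBEGF. Against control, the call under palbociclib passed in 21 of 21 alternatives for AREG and 19 of 21 for EGFR. These alternatives include leaving both out, and EGFR missed only by limma on TPM. Squamous and basal markers were present in part: SOX2 was at 342 to 443 TPM and PITX1 at 41.2 to 205 TPM, whereas TP63 reached at most 0.165 TPM, KRT14 0.0654 TPM and DSG3 0.0226 TPM in any library. Of 10 such markers, 4 averaged at least 1 TPM. The summed level of 5 neuroendocrine markers was 25.1 to 28.5 TPM under BLU9931, 20.1 to 28.5 TPM under palbociclib, 33.2 to 41.3 TPM in the combination and 16.9 to 20.8 TPM in control, with 3 of the 5 averaging at least 1 TPM and NEUROD1 at a median of 0. The summed level of 6 leukocyte markers was 1.55 to 2.36 TPM under BLU9931, 3.21 to 3.72 TPM under palbociclib, 4.64 to 5.09 TPM in the combination and 1.46 to 2.25 TPM in control, with 1 of the 6 averaging at least 1 TPM and the defining markers PTPRC and CD3E at a median of 0. For 6 lung glandular markers it was 10.6 to 12.3 TPM under BLU9931, 9.57 to 13.2 under palbociclib, 8.55 to 9.81 in the combination and 4.17 to 10.7 in control, with SCGB1A1 at 0 counts throughout. For 6 fibroblast markers it was 5.3 to 5.52 TPM under BLU9931, 2.35 to 3.65 under palbociclib, 1.45 to 3.13 in the combination and 1.97 to 4.69 in control, with COL3A1, DCN and LUM at a median of 0. The part of these markers in the results below was not tested.

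The promoters of the receptor and ligand genes are shown first for the genes whose RNA moved. Of the 10 genes, 8 were matched by symbol in the RefSeq promoter table (GRCh38.p14), all but ERBB3 and NRG1. Each window runs from 250 bases before to 50 bases after the annotated start, 5′ to 3′ on the gene's strand. Capitals mark matches, on either strand, to the GC box of SP and KLF factors (GGGCGG), the AP-1 motif (TGANTCA) or the cAMP response element (TGACGTCA). They are given for EGFR (chr7:55018767-55019066, plus strand), which fell, and for AREG (chr4:74444886-74445185, plus strand), ERBB4 (chr2:212538753-212539052, minus strand) and ERBB2 (chr17:39687844-39688143, plus strand), which rose in the combination.
EGFR: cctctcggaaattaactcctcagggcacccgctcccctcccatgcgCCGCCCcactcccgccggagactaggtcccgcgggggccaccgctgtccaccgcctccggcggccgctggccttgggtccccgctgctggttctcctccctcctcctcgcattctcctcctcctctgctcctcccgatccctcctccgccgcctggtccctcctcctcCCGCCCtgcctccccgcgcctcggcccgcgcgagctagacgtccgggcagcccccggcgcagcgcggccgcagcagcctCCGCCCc
AREG: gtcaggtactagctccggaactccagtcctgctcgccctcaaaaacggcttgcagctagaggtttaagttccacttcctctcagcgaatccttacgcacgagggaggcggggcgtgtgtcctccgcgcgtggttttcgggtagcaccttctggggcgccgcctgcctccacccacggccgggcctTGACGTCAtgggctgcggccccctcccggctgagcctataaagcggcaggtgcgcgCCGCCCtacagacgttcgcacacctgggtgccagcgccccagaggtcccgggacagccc
ERBB4: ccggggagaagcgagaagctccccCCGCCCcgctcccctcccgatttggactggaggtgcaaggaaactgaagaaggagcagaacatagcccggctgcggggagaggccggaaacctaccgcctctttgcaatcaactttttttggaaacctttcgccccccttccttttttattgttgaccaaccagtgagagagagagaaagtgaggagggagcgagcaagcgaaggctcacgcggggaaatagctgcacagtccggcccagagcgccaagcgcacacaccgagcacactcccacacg
ERBB2: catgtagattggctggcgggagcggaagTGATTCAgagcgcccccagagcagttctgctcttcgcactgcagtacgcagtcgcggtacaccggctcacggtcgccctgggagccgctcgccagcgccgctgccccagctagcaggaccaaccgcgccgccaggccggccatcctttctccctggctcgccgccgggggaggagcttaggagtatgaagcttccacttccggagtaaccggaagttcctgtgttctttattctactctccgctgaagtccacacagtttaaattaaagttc
The EGFR window held 3 GC boxes and was 75.3% G and C, against a median of 58.7% over the 35116 windows of the table. AREG held 1 cAMP response element, a motif in 1.85% of all windows, and 1 GC box, a motif in 45% of them. ERBB4 held 1 GC box. ERBB2 held no GC box and 1 match to the loose AP-1 pattern, TGATTCA, whose central T matched only because N allows any base. This loose pattern is found in 7.71% of windows. The start used for this ERBB2 window lies inside the bounds of the gene (39687914 to 39730426), not at their beginning. PGAP3 and MIEN1 overlap ERBB2 on the opposite strand, and whether the AP-1 match falls within either was not tested. The table lists another EGFR start, inside the bounds of the gene (chr7:55109589-55109888), whose window held 2 AP-1 motifs and 1 CHR element (TTTGAA or TTCGAA, in 16.4% of windows). Among the windows left, TGFA held 4 GC boxes in 1 of its 2 windows, HBEGF 5 and BTC 1. The E2F motif (TTTCGCGC or TTTGGCGC, in 1.15% of windows) and the E-box (CACGTG, in 7.26%) matched none of the 10 windows of the 8 genes. A match is a match of letters and was not tested for binding.

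Per unit of length, TGFA was the most abundant of the 10 genes in every group. In control it was at 20.7, 18.7 and 17.6 TPM, followed by ERBB3 at 8.84, 9.68 and 12.1 TPM and ERBB2 at 4.86, 5.64 and 7.89 TPM. HBEGF (3.56, 2.64 and 2.26 TPM), BTC (2.86, 2.76 and 2.22 TPM) and EGFR (2.01, 2.54 and 2.18 TPM) overlapped one another. AREG lay below them at 1.81, 1.5 and 1.9 TPM. NRG1 (1.58, 0.579 and 0.839 TPM) overlapped both AREG and ERBB4 (0.991, 1.11 and 0.922 TPM). EREG had no count in 11 libraries and 2 counts in BLU9931 3, below the 3 counts taken as the floor of detection. In the combination the order was TGFA (15.5, 17.5 and 16.7 TPM), ERBB2 (11.2, 11.5 and 15.1), AREG (6.09, 6.71 and 6.66) and ERBB3 (4.96, 4.24 and 4.65), with EGFR at 0.24, 0.399 and 0.782 TPM. The summed TPM of the 4 receptors was 24.2 ± 0.95 under BLU9931, 22.0 ± 2.28 under palbociclib, 19.9 ± 2.06 in the combination and 19.6 ± 3.26 in control (SD, n = 3 each). The makeup of that sum, given as a description with no test, differed between the groups. ERBB2 took 63.0% ± 4.62 of it in the combination and 54.2% ± 12.9 under palbociclib, against 31.0% ± 2.73 in control. Under palbociclib its share was 66 and 56.1% in palbociclib 1 and 2 and 40.3% in palbociclib 3. ERBB3 took 23.3% ± 2.55 and 24.9% ± 8.26, against 52.1% ± 0.989 in control. EGFR took 2.31% ± 1.13 in the combination, 8.35% ± 2.84 under palbociclib and 11.6% ± 2.01 in control. ERBB4 took 11.4% ± 3.29, 12.6% ± 2.27 and 5.25% ± 1.1 in the same order. Under BLU9931 the shares were 33.8% ± 4.63 for ERBB2, 44.8% ± 5.69 for ERBB3, 16.4% ± 2.36 for EGFR and 4.98% ± 0.921 for ERBB4. The shares rest on TPM, which for EGFR did not run parallel to its counts, as given below.

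**Figure D1:**
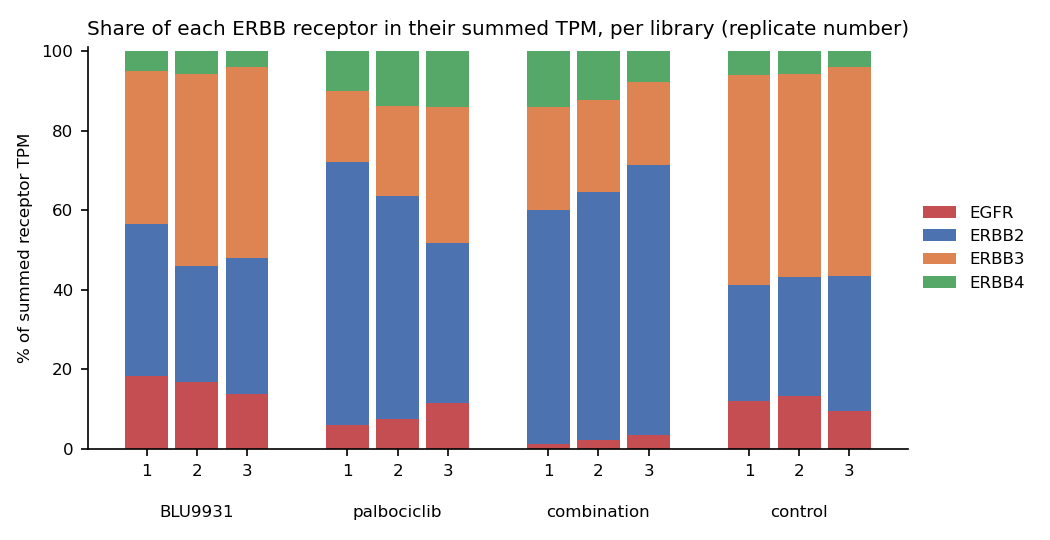
Each bar is a library, and its segments are the percent of the summed TPM of EGFR, ERBB2, ERBB3 and ERBB4 that each receptor took. In the 3 combination libraries ERBB2 took 58.7, 62.4 and 67.9%, and in the 3 control libraries ERBB3 took 52.9, 51 and 52.5%.

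Changes between groups were tested on the deposited counts by edgeR's quasi-likelihood F-test, with all 12 libraries in the same fit, at a Benjamini-Hochberg adjusted p under 0.05 over the 20612 genes. Levels below are CPM, counts scaled to library size by TMM, and changes are log2 fold changes with the standard error (SE) of the fit. A change in such bulk RNA does not tell fewer expressing cells from less RNA per cell. Palbociclib against control called 4 of the 9 members tested, with 2 higher and 2 lower, where 20.6% of all genes were called. The combination against control called 5 of the 9, with 3 higher and 2 lower, where 31.7% of all genes were called. BLU9931 against control called 0 of the 9, where 0.180% of all genes were called (0.141% higher and 0.0388% lower). BTC alone had an unadjusted p under 0.05 there, and DESeq2 and limma on TPM also called 0. The combination called 1 of the 9, lower, when set against palbociclib, where 3.82% of all genes were called and 2.91% fell. Set against BLU9931 it called 5 of the 9, 3 higher and 2 lower, where 27.0% of all genes were called, with 13.3% higher and 13.7% lower. The members' median log2 change was -0.04 under BLU9931, 0.21 under palbociclib and -0.14 in the combination, each against control, beside 0.00, 0.01 and 0.03 over all genes tested. The 3 libraries of each group did not overlap for 3 of the 9 members under BLU9931 against control (31.6% of all genes), 4 under palbociclib against control (32.0%), 5 in the combination against control (48.4%), 3 in the combination against palbociclib (21.6%) and 7 in the combination against BLU9931 (52.6%). These comparisons share libraries and are not independent of one another.

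**Figure D2:**
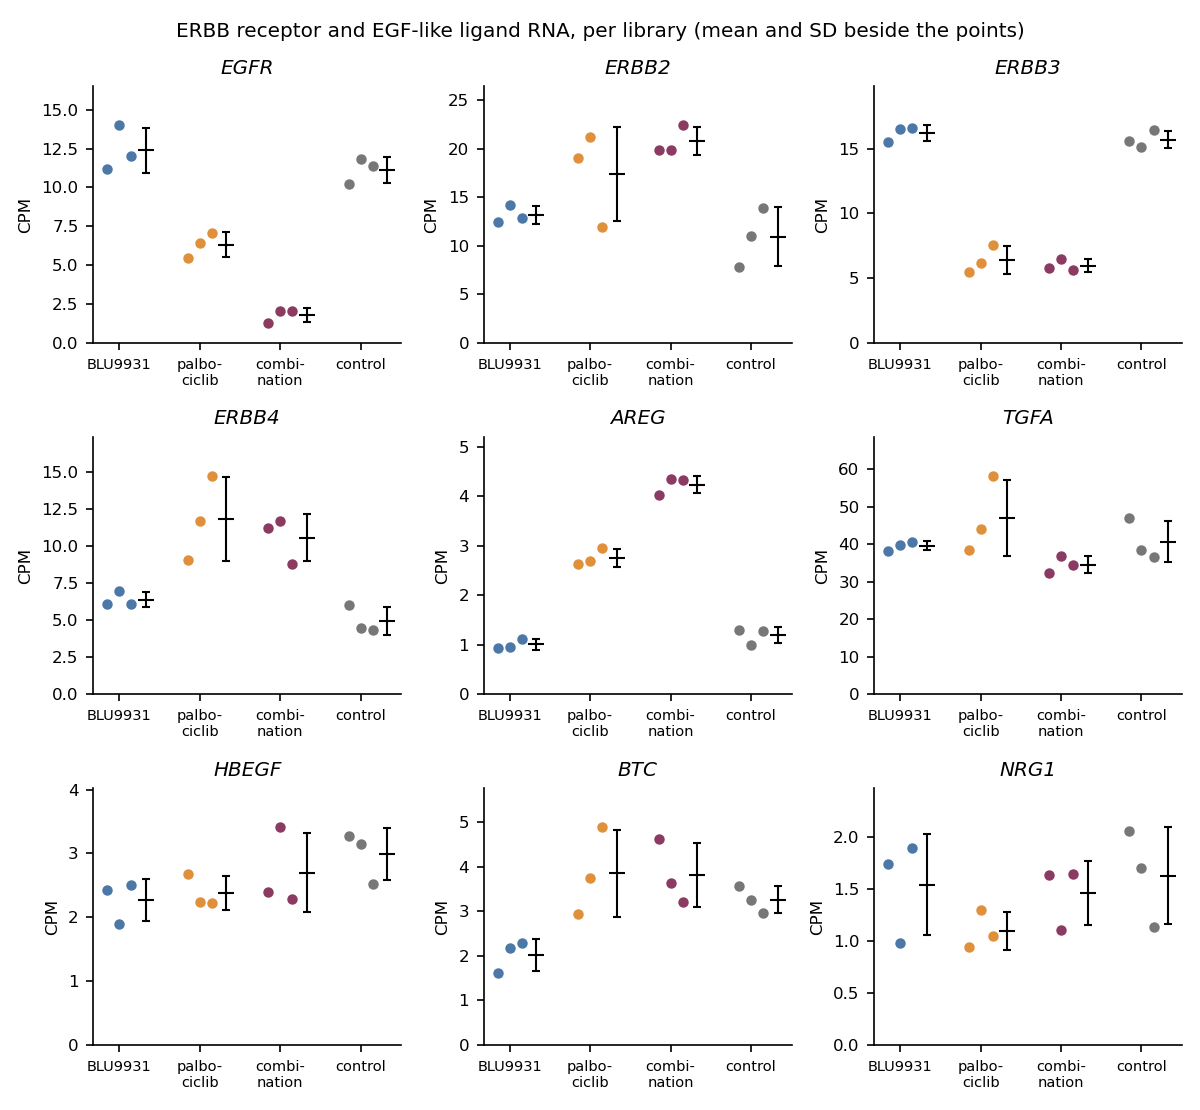
Each point is the CPM of a library in the group named on the horizontal axis, with the mean and SD of the 3 libraries beside the points; each vertical axis starts at 0. EGFR was at 1.27 to 2.09 CPM in the combination, below every library of the other groups, and AREG at 4.03 to 4.34 CPM, above every library of the other groups.

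EGFR (ENSG00000146648, GRCh38 chromosome 7, 55019021 to 55211628, plus strand), the receptor of the EGF and TGFA type of ligand, fell under palbociclib and fell much further in the combination. It was at 11.2, 14 and 12 CPM under BLU9931, at 5.47, 6.45 and 7.07 CPM under palbociclib, at 1.27, 2.06 and 2.09 CPM in the combination and at 10.2, 11.8 and 11.4 CPM in control. The combination libraries rest on 28, 58 and 64 counts. The ranges of BLU9931 and control overlapped, and palbociclib and the combination each lay apart from all other groups. The change against control was -0.82 ± 0.19 under palbociclib (edgeR adjusted p = 0.00944) and -2.61 ± 0.20 in the combination (adjusted p = 2.97e-06), a level 6.12-fold lower than in control. Against palbociclib alone the combination was 3.47-fold lower (-1.79 ± 0.20, edgeR adjusted p = 0.000366), and against BLU9931 alone 6.81-fold lower (-2.77 ± 0.20, 2.62e-06). Under BLU9931 alone the change was 0.15 with a 95% interval of -0.25 to 0.55 (adjusted p = 0.675).

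The deposited TPM of EGFR did not run parallel to its counts. It was 4.51, 4.24 and 3.2 TPM under BLU9931, 1.34, 1.81 and 2.25 TPM under palbociclib, 0.24, 0.399 and 0.782 TPM in the combination and 2.01, 2.54 and 2.18 TPM in control. On this scale palbociclib overlapped control, and its change missed the threshold (-0.27 on log2(TPM + 0.5), limma adjusted p = 0.483). BLU9931 lay above control in all 3 libraries (0.70, limma adjusted p = 0.245), also short of it. The combination still fell (-1.53, limma adjusted p = 0.000629). The gene length implied by count and FPKM varied 2.16-fold between libraries for EGFR. Over the 12580 genes whose count was 50 or more throughout, which leave out EGFR, AREG, BTC and NRG1, the 95th percentile was 1.9-fold. The length varied 1.08-fold for AREG, 1.15-fold for TGFA, 1.48-fold for ERBB2, 1.51-fold for ERBB3, 1.77-fold for ERBB4 and 2.67-fold for NRG1.

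ERBB3 (ENSG00000065361, chromosome 12, 56079857 to 56103505, plus strand), the neuregulin receptor with a nearly inactive kinase, fell under palbociclib and in the combination. It was at 15.5, 16.5 and 16.6 CPM under BLU9931, at 5.47, 6.18 and 7.6 CPM under palbociclib, at 5.8, 6.51 and 5.6 CPM in the combination and at 15.6, 15.1 and 16.4 CPM in control. All 6 libraries with palbociclib lay below all 6 without it, and within these pairs of groups the ranges overlapped. ERBB3 was 2.45-fold lower under palbociclib than in control (-1.29 ± 0.14, edgeR adjusted p = 0.000127). It was 2.63-fold lower in the combination than in control (-1.39 ± 0.14, edgeR adjusted p = 2.58e-05) and 2.72-fold lower than under BLU9931 (adjusted p = 2.37e-05). The combination differed from palbociclib by -0.10 (95% interval -0.42 to 0.21, adjusted p = 0.814).

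ERBB4 (ENSG00000178568, chromosome 2, 211375717 to 212538841, minus strand), the other neuregulin receptor and an active kinase, rose under palbociclib and in the combination. It was at 6.07, 6.96 and 6.07 CPM under BLU9931, at 9.05, 11.7 and 14.7 CPM under palbociclib, at 11.2, 11.7 and 8.77 CPM in the combination and at 6.03, 4.46 and 4.33 CPM in control. The libraries with palbociclib all lay above those without it. ERBB4 was 2.39-fold higher under palbociclib than in control (1.26 ± 0.21, edgeR adjusted p = 0.00152) and 2.14-fold higher in the combination (1.10 ± 0.21, 0.00187). Without both control 1 and palbociclib 3 the rise under palbociclib was 1.22 (0.000753). The rise over BLU9931 in the combination (0.73 ± 0.20, adjusted p = 0.0207) stayed at 0.67 without BLU9931 1 (0.0804), 0.68 without BLU9931 3 (0.0743), 0.66 without combination 1 (0.0665) and 0.63 without combination 2 (0.0782), each short of the threshold. BLU9931 lay just above control in every library, by 0.37 (95% interval -0.09 to 0.82, adjusted p = 0.385), a difference that passed after an adjustment for the GC content of transcripts (0.57, adjusted p = 0.0299).

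ERBB2 (ENSG00000141736, chromosome 17, 39687914 to 39730426, plus strand), the partner without a ligand, rose in the combination. It was at 12.4, 14.2 and 12.9 CPM under BLU9931, at 19, 21.2 and 11.9 CPM under palbociclib, at 19.9, 19.9 and 22.4 CPM in the combination and at 7.85, 11 and 13.9 CPM in control. The combination did not overlap control, and its level was 1.89-fold higher (0.92 ± 0.23, edgeR adjusted p = 0.0104; 0.71 and 0.0385 without control 1). Palbociclib overlapped control and missed the threshold at 0.67 ± 0.23 (adjusted p = 0.0628), with palbociclib 3 and control 1 each the lowest library of its group. Without palbociclib 3 the change was 0.88 (adjusted p = 0.00725), without control 3 it was 0.88 (0.0393), and without both control 1 and palbociclib 3 it was 0.67 (0.0047). It passed under 7 of 21 alternatives. The combination against BLU9931 was 0.65 ± 0.23 (adjusted p = 0.0565), or 0.65 without palbociclib 3 (0.0164), 0.63 without control 1 (0.0359) and 0.63 without both control 1 and palbociclib 3 (0.00129). The bounds of ERBB2 overlap those of PGAP3 and MIEN1 on the opposite strand, and since the use of strand in counting is not given, reads in the overlaps cannot be told apart. PGAP3 was at 26.3, 24.3 and 26.7 CPM in the combination and 9.49, 17.4 and 18.9 CPM in control (0.75 ± 0.26, adjusted p = 0.0441). MIEN1 was at 11.1, 11.3 and 11.1 CPM in the combination and 7.04, 26.1 and 8.38 CPM in control (adjusted p = 0.693). Both were named because they overlap ERBB2.

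**Figure D3:**
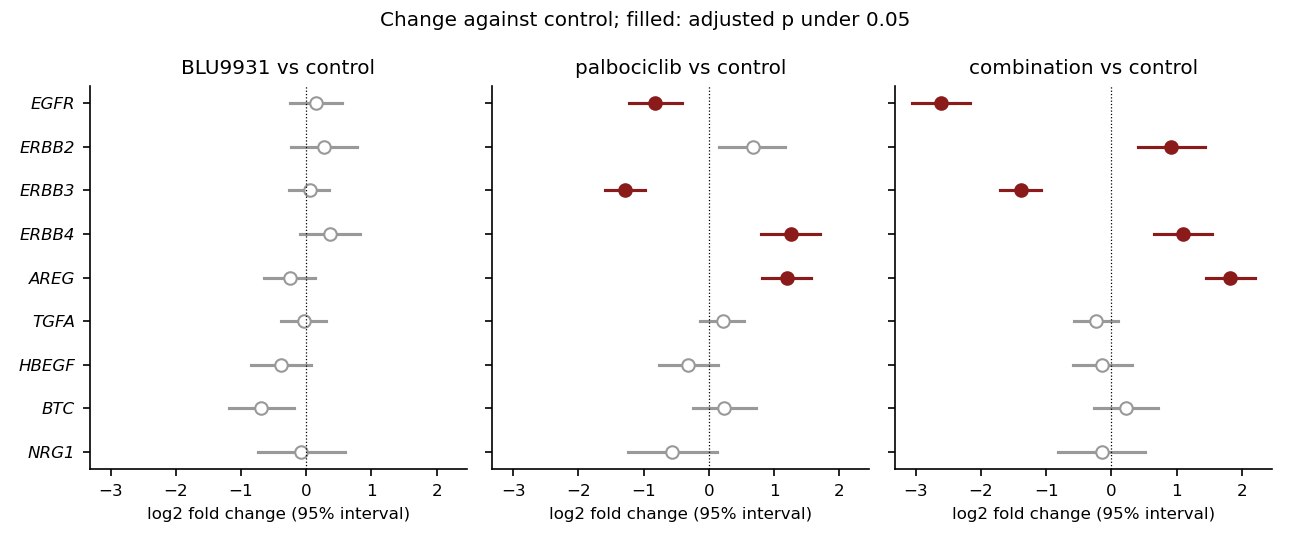
Points are log2 fold changes against control from the edgeR fit and lines their 95% intervals, with filled points for an adjusted p under 0.05. BLU9931 had no filled point, and in the combination EGFR (-2.61) and ERBB3 (-1.39) lay below 0 and ERBB2 (0.92), ERBB4 (1.10) and AREG (1.82) above it.

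Among the ligands, AREG (ENSG00000109321, chromosome 4, 74445134 to 74455009, plus strand), amphiregulin, a ligand of EGFR, rose under palbociclib and was highest in the combination. It was at 0.934, 0.95 and 1.12 CPM under BLU9931, at 2.62, 2.68 and 2.95 CPM under palbociclib, at 4.03, 4.34 and 4.32 CPM in the combination and at 1.3, 1 and 1.27 CPM in control. These levels rest on 22 to 132 counts a library. BLU9931 and control overlapped, and the groups with palbociclib lay above both without overlap. AREG was 2.29-fold higher under palbociclib than in control (1.20 ± 0.17, edgeR adjusted p = 0.000641) and 3.53-fold higher in the combination (1.82 ± 0.17, 1.28e-05). It was 4.21-fold higher in the combination than under BLU9931 (2.07 ± 0.18, adjusted p = 7.24e-06). The combination also lay above palbociclib in every library, by 0.62 ± 0.16, but missed the threshold over all genes (adjusted p = 0.0599). It passed with DESeq2 (0.0424), without both control 1 and palbociclib 3 (0.0396) and after the GC adjustment (0.00857).

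AREG lies in a row of ligand genes on chromosome 4 with EPGN, EREG and BTC, with no other protein-coding gene of the table between them over the 429.5 kb from the end of EPGN to the start of BTC. EREG ends 56.4 kb before AREG begins, and BTC lies 289.7 kb beyond AREG. EPGN had 2 counts in control 3 and no count elsewhere, and EREG 2 counts in BLU9931 3. Both stayed below the floor of 3 counts, so their patterns cannot be compared. Of the row, AREG and BTC passed the filter. Under palbociclib and in the combination, each against control, AREG was called and BTC was not.
BTC (ENSG00000174808, chromosome 4, 74744759 to 74794686, minus strand), betacellulin, a ligand of EGFR and ERBB4, was at 1.61, 2.17 and 2.28 CPM under BLU9931, at 2.95, 3.74 and 4.89 CPM under palbociclib, at 4.62, 3.63 and 3.21 CPM in the combination and at 3.57, 3.25 and 2.97 CPM in control. The BLU9931 libraries were the lowest, and the other groups overlapped. BTC was higher in the combination than under BLU9931 (0.91 ± 0.23, edgeR adjusted p = 0.0122). The difference was 0.75 without BLU9931 1 (adjusted p = 0.0618) and 0.73 without combination 1 (0.0547), where it missed the threshold. BLU9931 against control was at -0.69 (95% interval -1.19 to -0.19, unadjusted p = 0.0116 and adjusted p = 0.218 in the edgeR fit).

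The ligands TGFA, HBEGF and NRG1 passed the test in none of the 6 comparisons as fitted on the counts. TGFA (ENSG00000163235, chromosome 2, 70447280 to 70554193, minus strand), the transforming growth factor that binds EGFR, was at 38.3, 39.9 and 40.6 CPM under BLU9931, at 38.5, 44.1 and 58.2 CPM under palbociclib, at 32.4, 36.8 and 34.5 CPM in the combination and at 46.9, 38.5 and 36.7 CPM in control. Palbociclib 3 and control 1 were the highest libraries, and the combination lay below all BLU9931 and palbociclib libraries but overlapped control. The change in the combination against control was -0.24 (95% interval -0.58 to 0.10, edgeR adjusted p = 0.275), and against palbociclib -0.44 (-0.78 to -0.10, adjusted p = 0.178, or -0.37 and 0.042 after the GC adjustment). Without both control 1 and palbociclib 3 these were -0.14 (adjusted p = 0.246) and -0.26 (0.101). HBEGF (ENSG00000113070, chromosome 5, 140332843 to 140346631, minus strand), the heparin-binding ligand of EGFR and ERBB4, was at 2.42, 1.9 and 2.51 CPM under BLU9931, at 2.68, 2.24 and 2.22 CPM under palbociclib, at 2.4, 3.41 and 2.29 CPM in the combination and at 3.28, 3.15 and 2.52 CPM in control. Its BLU9931 libraries lay just below control, at -0.39 (95% interval -0.84 to 0.07, adjusted p = 0.367). NRG1 (ENSG00000157168, chromosome 8, 31639386 to 32767959, plus strand), neuregulin-1, the ligand of ERBB3 and ERBB4, was at 1.74, 0.984 and 1.89 CPM under BLU9931, at 0.939, 1.3 and 1.05 CPM under palbociclib, at 1.63, 1.1 and 1.64 CPM in the combination and at 2.05, 1.7 and 1.13 CPM in control. It was counted 26 to 55 times a library and the ranges of its groups overlapped, with changes against control of -0.08 (95% interval -0.74 to 0.59) under BLU9931, -0.56 (-1.24 to 0.12) under palbociclib and -0.15 (-0.82 to 0.52) in the combination.

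The interaction asked whether the combination departed from the single drugs added together on the log2 scale. It called 1 of the 9 members, EGFR, where 1.59% of all genes were called, 0.281% upward and 1.31% downward. The single-drug changes of EGFR, 0.15 under BLU9931 and -0.82 under palbociclib, added to -0.67, whereas the combination was at -2.61, an interaction of -1.95 ± 0.27 (95% interval -2.54 to -1.35, edgeR adjusted p = 0.00383). The call held under each of 21 alternatives, 12 of which left out a library, with values of -2.6 to -1.76 and adjusted p of 7.73e-10 to 0.0253. AREG departed the other way, with 1.82 in the combination against a sum of 0.95 (interaction 0.88 ± 0.24, 95% interval 0.34 to 1.41), but did not pass (adjusted p = 0.116, or 0.029 to 0.329 over the same alternatives). ERBB2 (0.92 against a sum of 0.94) and ERBB3 (-1.39 against -1.24) lay close to the sum, with 95% intervals of the interaction of -0.73 to 0.70 and -0.59 to 0.29. For ERBB4 the combination, at 1.10, was short of the sum of 1.62 (interaction -0.52, 95% interval -1.16 to 0.11, adjusted p = 0.45, or -0.60 and 0.0499 after the GC adjustment).

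**Figure D4:**
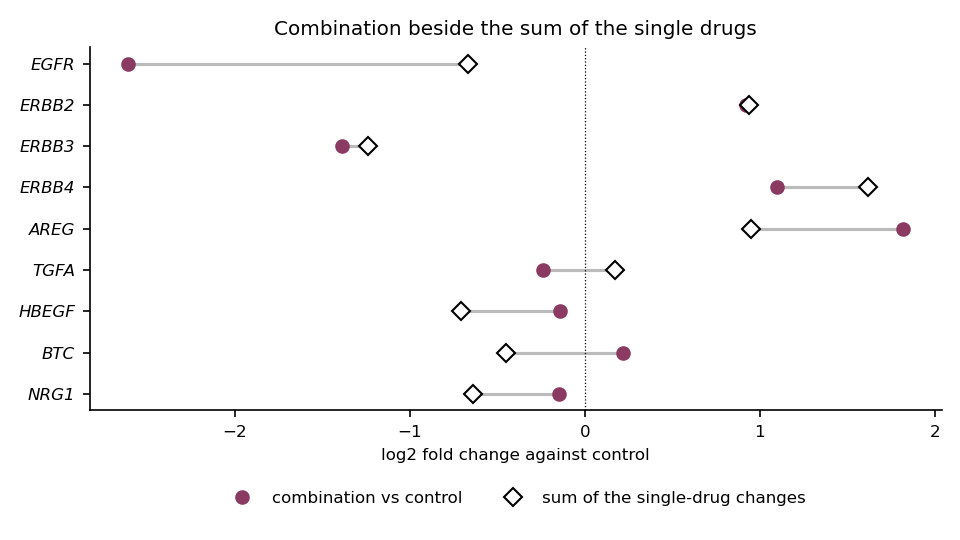
For each member tested, the filled circle is the log2 fold change of the combination against control and the open diamond the sum of the log2 fold changes of the single drugs against control. EGFR, at -2.61 against a sum of -0.67, has the widest gap of the 9 members, and the symbols of ERBB2 (0.92 and 0.94) lie next to each other.

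Across the 12 libraries, the log2 CPM of EGFR and ERBB3 ran together (Pearson's r = 0.83), as did that of ERBB4 and AREG (0.82) and of ERBB2 and AREG (0.72). AREG ran against ERBB3 (-0.94) and EGFR (-0.91). These correlations describe libraries that share treatments within groups and carry no p. Among protein-coding genes, the highest r with EGFR were those of SDC2 (0.989), SLITRK5 (0.988) and TYMS (0.988). For ERBB3 they were GDF7 (0.991), PODXL (0.984) and MMACHC (0.984), and for AREG they were TPD52L1 (0.990), GTF2IRD2 (0.988) and CDC14B (0.987). ERBB2 was nearest to SLC4A3 (0.985), CUL7 (0.985) and HID1 (0.982), and ERBB4 to CREBRF (0.986), PARP8 (0.974) and KLHL24 (0.973). TGFA had no nearer gene than VPS13A (0.932), HBEGF none nearer than SEC11A (0.826), NRG1 none nearer than CCSER2 (0.952) and BTC none nearer than DGKG (0.978).

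Beyond the members, 37 other genes of the pathway were listed by role, of which 34 passed the filter. The ligand genes EPGN and NRG2 and the ubiquitin ligase gene CBLC did not pass it. Palbociclib against control called 10 of the 34, with 7 higher and 3 lower (10% of all genes rose and 10.5% fell). The combination against control called 12, with 6 higher and 6 lower (15.4% and 16.3% of all genes). BLU9931 called 0, with 5 at an unadjusted p under 0.05 in edgeR, while DESeq2 called 2 and limma on TPM 0. Against palbociclib the combination called 2, both lower (2.91% of all genes fell), and against BLU9931 it called 10, with 6 higher and 4 lower (13.3% and 13.7% of all genes). For the interaction edgeR called 0 (2 at an unadjusted p under 0.05), DESeq2 2 and limma on TPM 0. The median log2 change of the 34 was 0.03 under palbociclib and -0.09 in the combination.

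Adaptor and effector genes rose in 4 of 13 cases and fell in 0 in each of the comparisons of palbociclib (10% of all genes rose and 10.5% fell) and of the combination (15.4% and 16.3%) with control. PIK3R3, a regulatory subunit of PI3K that docks on ERBB receptors, was at 175, 177 and 213 CPM under palbociclib and 191, 211 and 158 CPM in the combination, against 65.7, 52.5 and 49 CPM in control, 3.38-fold and 3.35-fold higher (edgeR adjusted p = 2.1e-05 and 5.84e-06). PIK3R2, a sister subunit, was at 138, 157 and 65.2 CPM under palbociclib against 20.3, 49.2 and 40.6 CPM in control (1.71 ± 0.35, adjusted p = 0.00574), with palbociclib 3 and control 1 again the lowest libraries of their groups. Without both it was 1.70 (adjusted p = 0.000367). The docking protein gene GAB2 rose to 28, 26.7 and 29 CPM in the combination, against 16.1, 17.2 and 17.2 CPM in control (0.73 ± 0.11, adjusted p = 0.000533). Under palbociclib GAB2 was higher by 0.48 ± 0.11 (adjusted p = 0.0116), or 0.39 without palbociclib 1, which missed the threshold (0.0596).
PIK3R1, which encodes the p85 subunit, was at 35.4, 27 and 36.4 CPM in the combination and 23.6, 21 and 23.2 CPM under BLU9931 (0.54 ± 0.16, adjusted p = 0.0266), and passed under 9 of 21 alternatives. It missed the threshold at 0.52 without control 2 (0.0516), 0.52 without control 3 (0.052), 0.55 without BLU9931 1 (0.0748), 0.47 without BLU9931 2 (0.122), 0.54 without BLU9931 3 (0.0775), 0.47 without combination 1 (0.115) and 0.43 without combination 3 (0.121). Control held 39, 36 and 37.3 CPM of it. The adaptor gene GRB7 rose under palbociclib (0.89 ± 0.26, edgeR adjusted p = 0.0305) and in the combination (1.17 ± 0.26, 0.00495), as did PIK3R2 in the combination (1.62 ± 0.35, 0.00453). Without control 1 and palbociclib 3, GRB7 was at 0.85 (0.0193) under palbociclib and 0.96 (0.00516) in the combination, and PIK3R2 at 1.31 (0.000591) there. GRB7 under palbociclib missed the threshold without control 1 alone, at 0.70 (0.0914). In the combination against BLU9931, GAB2 (0.33, adjusted p = 0.0483) and SOS2 (0.47, 0.0496) passed narrowly. Beyond the 6 pathway genes of smallest p in a comparison, genes were named after their values were seen: RHBDF1, GRB7, CBL and CBLB under palbociclib, PIK3R2, GRB7, CBL, NEDD4, SOCS4 and ADAM12 in the combination against control, and RHBDF1, GAB2, SOS2 and CBL in the combination against BLU9931.

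Genes listed as negative regulators were called in both directions, with 1 of 12 higher and 3 lower under palbociclib (10% of all genes rose and 10.5% fell) and 1 higher and 5 lower in the combination (15.4% and 16.3%), against control. The role is that of the list, and whether each gene, LRIG3 among them, restrains ERBB receptors in these cells was not tested. LRIG3, of the LRIG family of membrane proteins of which LRIG1 restrains ERBB receptors, was at 16.7, 14.9 and 17.4 CPM under palbociclib and 10.6, 11.7 and 8.93 CPM in the combination, against 42.8, 39.9 and 35.5 CPM in control (-1.27 ± 0.13 and -1.92 ± 0.14, edgeR adjusted p = 8.55e-05 and 1.53e-06). It was lower in the combination than under palbociclib (-0.65 ± 0.13, adjusted p = 0.0185), or -0.66 without combination 1 (0.0628) and -0.56 without combination 3 (0.0823), both short of the threshold. LRIG1 itself, which promotes the breakdown of ERBB receptors, was at 87.7, 84.6 and 77.6 CPM under palbociclib and 66.6, 73 and 76.4 CPM in the combination, against 114, 150 and 145 CPM in control (-0.71 ± 0.12 and -0.92 ± 0.12, adjusted p = 0.0014 and 0.00012). CBLB, a ubiquitin ligase that marks active receptors for breakdown, rose to 35.6, 40.6 and 41.3 CPM in the combination, against 24.4, 16.7 and 18 CPM in control (0.99 ± 0.18, adjusted p = 0.00137). The ubiquitin ligase gene CBL fell under palbociclib (-0.72 ± 0.18, edgeR adjusted p = 0.0167), in the combination against control (-0.65 ± 0.18, 0.018) and in the combination against BLU9931 (-0.56 ± 0.18, 0.0429), and CBLB rose under palbociclib (0.68 ± 0.18, 0.0191). Under palbociclib CBL ran from 83.2 to 154 CPM, against 199 to 228 CPM in control. In TPM it ran from 24.5 to 26.2, against 32.1 to 36.6 in control, so its wide spread in counts was not seen in TPM. NEDD4 (-1.17 ± 0.37, adjusted p = 0.0307) and SOCS4 (-1.29 ± 0.42, 0.0356) fell in the combination against control. Both varied widely between libraries. NEDD4 ran from 14.6 to 29.6 CPM in the combination and from 45.5 to 68.2 CPM in control. SOCS4 ran from 41.7 to 83.8 CPM in the combination, from 46.7 to 142 CPM under palbociclib and from 124 to 175 CPM in control. Against BLU9931 alone, LRIG3 (-1.66), LRIG1 (-0.74), CBLB (0.87) and PIK3R3 (1.74) passed the test in the same directions in the combination, in a comparison that uses the same combination libraries.

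Of the 6 genes of the shedding machinery, 1 rose under palbociclib (10% of all genes), and 1 rose and 1 fell in the combination (15.4% and 16.3% of all genes), against control. RHBDF1, which encodes iRhom1, a protein that carries the ligand protease ADAM17 to the surface, was at 6.84, 7.57 and 7.2 CPM in the combination, against 1.53, 2.94 and 2.58 CPM in control (1.61 ± 0.30, edgeR adjusted p = 0.00169). It was also higher under palbociclib (1.10 ± 0.30, adjusted p = 0.023) and in the combination against BLU9931 (0.92 ± 0.29, 0.0358). Without both control 1 and palbociclib 3, RHBDF1 was at 1.37 (adjusted p = 4.4e-05) in the combination and 1.14 (0.000485) under palbociclib, where it missed the threshold without control 1 alone, at 0.87 (0.0677). ADAM12, a metalloprotease that cuts HBEGF, was at 8.7, 8.35 and 8.41 CPM in the combination, against 14.8, 14.9 and 14.1 CPM under palbociclib (-0.78 ± 0.12, adjusted p = 0.00411, or 0.0567 by limma on log2(TPM + 0.5)). Against control it was at -0.59 ± 0.12 (adjusted p = 0.00385). Against BLU9931 it was lower, at -0.51 ± 0.12 (adjusted p = 0.00989, or 0.201 by limma on log2(TPM + 0.5)). Of the other ligands, EGF, the ligand that gave EGFR its name, was at 9.79, 9.56 and 7.88 CPM under palbociclib, against 6.74, 5.61 and 4.7 CPM in control. Its rise of 0.68 ± 0.17 (edgeR adjusted p = 0.015) was 0.66 without control 2 (0.0504), 0.55 without control 3 (0.0655), 0.61 without palbociclib 1 (0.0591), 0.62 without palbociclib 2 (0.0574) and 0.58 by limma on log2(TPM + 0.5) (0.187), and in each of these it missed the threshold.

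**Figure D5:**
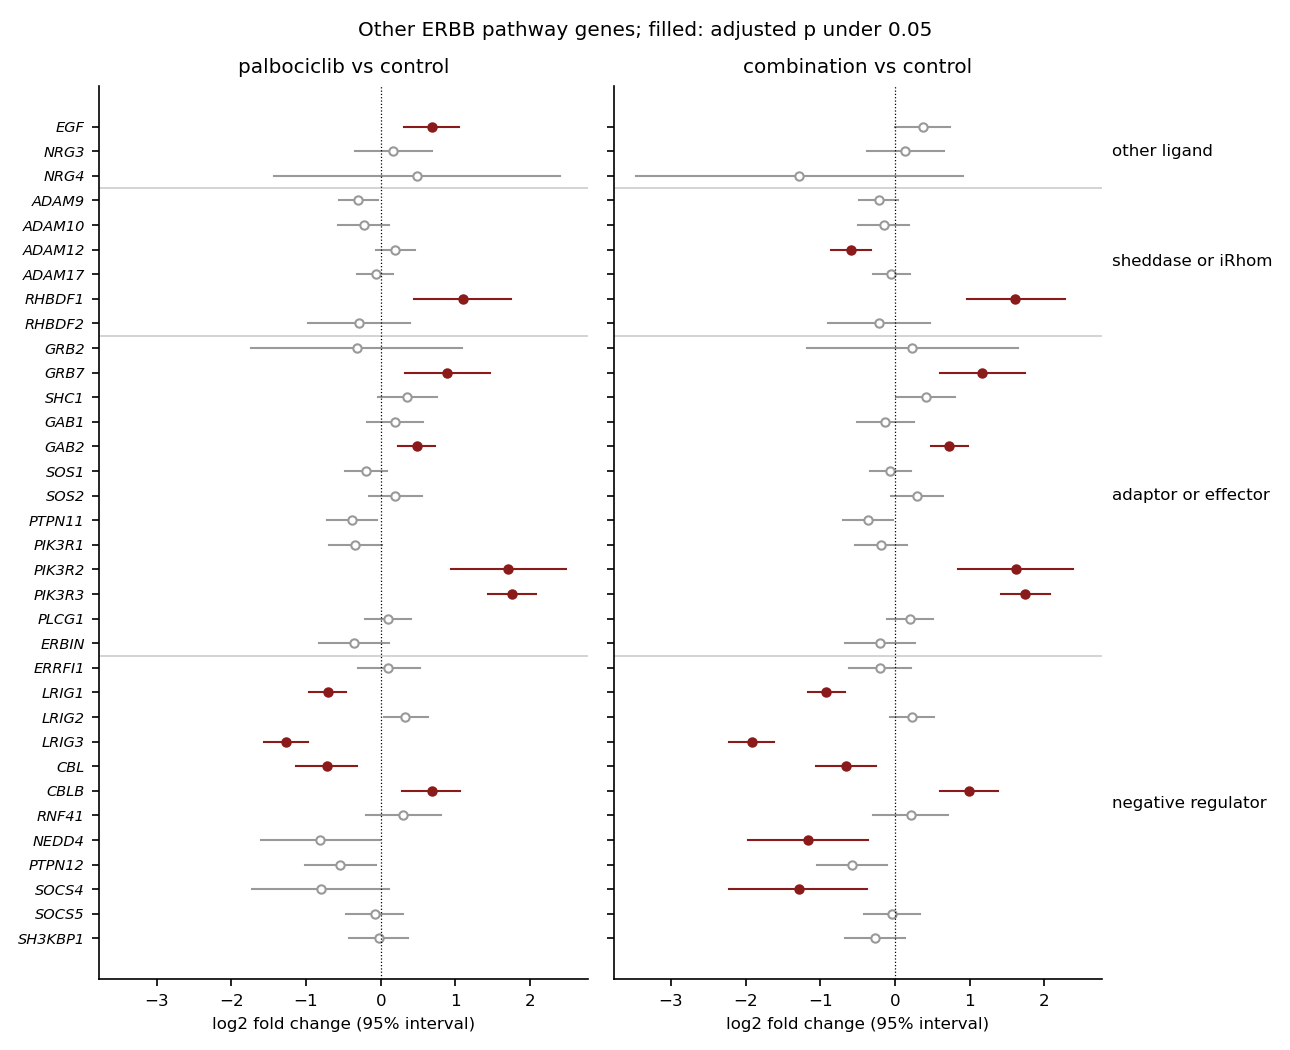
Rows are the 34 other pathway genes tested, grouped by role as named at the right; points are log2 fold changes against control, lines their 95% intervals, and filled points an adjusted p under 0.05. PIK3R3 and PIK3R2 lie farthest to the right under palbociclib (1.76 and 1.71), and LRIG3 lies farthest to the left among filled points in the combination (-1.92).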

How the data were processed

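The authors deposited a table with a count, a TPM and an FPKM value per gene and library. Per the file headers the whole-number columns hold the count of each gene. TPM, scaled by length to a fixed total, and FPKM, per kilobase and library size, are the other 2 units per the file headers. Trimmomatic 0.36, StringTie 1.3.3b, HISAT2 2.0 and bedtools 2.26.0 are listed, with a mouse build and no roles, per the submitters' processing notes. The IDs are human, and 56044 of 58174 genes have the GRCh38 bounds of GENCODE 29, so positions are on GRCh38. Counting mode and strand are not given in the sources used here.

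The test of counts used edgeR 4.0.16 under R 4.3.3 (filterByExpr, TMM, glmQLFit with robust estimation, 1 term per group, 8 residual degrees of freedom), adjusted over 20612 genes. DESeq2 1.42.0 and limma 3.58.1 served as alternatives. The main edgeR fit, DESeq2 and limma were run on simulated counts, for palbociclib against control only and with 1 dispersion for all genes. There limma used counts scaled to library totals in place of TPM. The interaction and the other alternatives were not simulated. Python 3.11.15 with pandas 2.3.3, scipy 1.17.1 and matplotlib 3.10.9 made tables and plots. SE is the size of the log2 change over the root of F. The GC adjustment took a smooth of each library's deviation on transcript GC content as an offset. Replicates differed beyond counting error (chi-square per degree of freedom 17.6 to 86.1), so no pair agreed within sampling noise. The members, the list of 37 pathway genes, the markers and the motifs were chosen with earlier results of these data known. All members were named, and up to 6 pathway genes past the threshold per comparison, by smallest p; the other pathway genes called were named after their values were seen. The table has 0 sample columns outside the series.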

Additional observations from a re-analysis of the deposited data

Results flagged for a closer look

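The effect of palbociclib on EGFR differed between cells that also had BLU9931 and cells that did not, by an interaction of -1.95 on the log2 scale (SE 0.27, edgeR adjusted p = 0.00383). The palbociclib effect was -2.77 with BLU9931 (the combination against BLU9931) and -0.82 without it (palbociclib against control). All 3 combination libraries lay below all 3 palbociclib libraries. Groups of 3 libraries were not tested for single outlying libraries.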

How the results depend on the processing

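Alternatives were library totals or RLE size factors in place of TMM, DESeq2, no filter on low counts, a replicate block, limma on log2(TPM + 0.5) and log2(TPM + 0.1), the GC adjustment, leaving out control 1 and palbociclib 3 together, and leaving out each library. The counts of members called under palbociclib (4) and in the combination (5), each against control, stayed within 1.5 times. The cause of the moves below was not tested. With the GC adjustment, members called were 1 under BLU9931 against control, 3 in the combination against palbociclib and 3 for the interaction; other pathway genes called were 17 (palbociclib against control), 1 (BLU9931), 8 (combination against palbociclib), 16 (combination against BLU9931) and 4 (interaction); and all genes called were 7244, 774, 2521, 8443 and 1947 in the same order. Without both control 1 and palbociclib 3, members called in the combination against palbociclib were 2, pathway genes 2 (BLU9931), 8 (combination against palbociclib) and 6 (interaction), and all genes 553 (BLU9931), 2043, 8685 (combination against BLU9931) and 2117 (interaction). DESeq2 called 2 members in the combination against palbociclib, 2 pathway genes under BLU9931 and 2 for the interaction, and 590, 1328 and 853 genes in all under BLU9931, in the combination against palbociclib and for the interaction. With no filter on low counts, 17 genes in all were called under BLU9931 and 6 pathway genes in the combination against BLU9931, and limma on either pseudocount called 5 pathway genes there and 1 in the combination against palbociclib.

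Leaving out single libraries gave ranges of 4 to 5 members under palbociclib and 3 to 6 in the combination against BLU9931 (3 without BLU9931 1 or combination 1). Pathway genes called ranged from 6 (without palbociclib 1) to 15 under palbociclib, 0 to 1 under BLU9931, 1 to 2 in the combination against palbociclib, 5 to 13 in the combination against BLU9931 and 0 to 2 for the interaction. All genes called ranged from 2985 to 5689, 1 to 396, 438 to 945, 4120 to 6836 and 148 to 986 in these comparisons, the highest without palbociclib 3 in all but the combination against palbociclib, where it was without control 1.

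Deviations of same-numbered libraries correlated at -0.364 to 0.1677 between groups. The lowest values, -0.364 and -0.3084, were of control with palbociclib in pairs that hold control 1 or palbociclib 3. As those libraries stood apart, the correlations cannot settle whether replicate numbers pair the libraries. With a replicate block, 2 genes in all were called under BLU9931, 483 in the combination against palbociclib and 142 for the interaction, and 5 pathway genes in the combination against BLU9931; the members' counts of calls did not move.

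The sign changed under some alternative for 10 values of members, none of them past the threshold there. Under BLU9931 against control, ERBB3 was at -0.04 (GC). TGFA was at 0.02 (library totals), 0.07 and 0.08 (limma), 0.08 (both libraries out), 0.03 (GC) and -0.09 to 0.07 without single libraries, and NRG1 at 0.12 (both out), 0.04 (GC) and -0.27 to 0.18 without single libraries. NRG1 in the combination was at 0.03 against control (both out) and, without single libraries, at -0.37 to 0.02 against control and -0.35 to 0.08 against BLU9931. In the combination against palbociclib, ERBB3 was at 0.04 (both out) and -0.20 to 0.04 without single libraries, and ERBB4 at 0.03 (both out) and -0.31 to 0.03. There HBEGF was at -0.12 and -0.14 (limma) and -0.02 to 0.28 without single libraries, and BTC at 0.07 and 0.08 (limma), 0.19 (both out), 0.11 (GC) and -0.17 to 0.19. The interaction of ERBB2 was at 0.17 (GC) and -0.25 to 0.15 without single libraries. With library totals the median log2 change of all genes in the combination against control was 0.11, against 0.03 with TMM, and the called members kept their directions.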
